A study of Mus musculus with 38 samples.

Results

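Titin, the splicing factor that sets its length and the proteins that anchor it were followed at the RNA level in the mouse left ventricle. Of the 29564 genes in the deposited tables, 9 were taken by symbol: the giant sarcomere protein Ttn, its splicing factor Rbm20, the M-band proteins Myom1 and Myom2, the intermediate filament protein Des, the Z-disc proteins Ldb3 and Actn2, and the LIM-domain proteins Fhl1 and Fhl2. All 9 passed the filter on low counts. RNA from 38 hearts, 1 library per mouse, was sequenced after poly(A) capture, and the mice were C57BL6 and wild type. The 8 control mice (non_failing) were healthy, and the others had HFpEF, heart failure in which the ejection fraction is preserved, brought about by a high-fat diet and L-NAME, a blocker of nitric oxide synthesis. In the study, comparison mice for this model ate standard chow, and its control group was given vehicle. HFpEF mice received vehicle (HFpEF+Veh, n = 8), TYA-018, which inhibits the deacetylase HDAC6 (HFpEF+TYA-018, n = 11), or the SGLT2 inhibitor empagliflozin (HFpEF+SGLT2i, n = 11), by mouth and once a day, and the diet and L-NAME were shared by all 3 HFpEF groups. TYA-018 and empagliflozin are small molecules, and the design did not direct either to a cell type of the heart. The study places SGLT2 mainly in kidney and skeletal muscle rather than in the heart.

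Titin spans from the Z-disc, the border of the sarcomere, to the M-band at its centre, and its I-band stretch works as the molecular spring behind passive stiffness of the ventricle. RBM20 is a nuclear RNA-binding protein that promotes skipping of I-band exons. Much RBM20 activity yields the short, stiff N2B form of titin, whereas little activity yields the longer, more compliant N2BA forms. In the Z-disc, alpha-actinin 2 crosslinks actin and titin and LDB3 (Cypher) binds alpha-actinin, while myomesins crosslink titin and myosin at the M-band and desmin ties neighbouring Z-discs to each other and to the cell membrane. FHL1 and FHL2 bind the spring region of titin.

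Ttn lies on the minus strand of chromosome 2 (chr2:76703980-76982547, GRCm38), and GENCODE release M21 lists 25 transcripts of it, from 271 to 106824 bases. Of these, 4 exceed 80000 bases, 3 have 10000 to 30000 bases and 18 are shorter. Ttn-203 is the longest, with 347 exons. Ttn-201, of 81843 bases, leaves out 154 consecutive I-band exons of Ttn-203, or 24843 bases, as the N2B form of the heart does. Ttn-205, of 101674 bases, lacks the N2B exon of 2646 bases, and Ttn-202, of 16891 bases, ends in an exon of 6520 bases that the long transcripts do not have, as the short novex-3 form does. The junctions that tell these forms apart are printed because the balance of these forms bears on the effective length of Ttn, a measure tested in these hearts. They were read from the transcripts of GENCODE M21, 5′ to 3′ along the transcript. Lower case marks the last 30 bases of the shared exon, capitals mark the first 30 bases of the exon that follows, and all bases are coding.
Ttn-202, exon 44 into exon 45 (6520 bases, chr2:76913944-76920463): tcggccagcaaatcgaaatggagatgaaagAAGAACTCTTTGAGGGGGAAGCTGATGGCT
Ttn-203, exon 45 into exon 46 (the N2B exon, chr2:76907308-76909953): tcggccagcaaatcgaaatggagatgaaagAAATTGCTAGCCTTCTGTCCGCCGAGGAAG
Ttn-205, exon 45 into exon 46 (279 bases, chr2:76906254-76906532): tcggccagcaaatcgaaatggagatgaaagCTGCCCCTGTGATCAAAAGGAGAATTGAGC
Ttn-203, exon 47 into exon 48 (564 bases, chr2:76903063-76903626): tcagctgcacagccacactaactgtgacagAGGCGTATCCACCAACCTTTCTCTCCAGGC
Ttn-201, exon 46 into exon 47 (81 bases, chr2:76818736-76818816): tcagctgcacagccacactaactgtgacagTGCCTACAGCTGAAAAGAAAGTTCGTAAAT
Reads over single junctions were not used here, since the deposited tables hold 1 value per gene.

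Libraries held 21.5 to 59.3 M counts (M stands for 1000000). The 10 ventricular cardiomyocyte markers summed to between 28383 and 47336 TPM (transcripts per 1000000 transcripts), and none of them was at 0 in any library. By median, hepatocyte marker RNA was highest in non_failing, where the 10 markers summed to 24.1 to 352 TPM with a median of 58.3, against medians of 5.43 TPM in HFpEF+Veh, 2.40 with TYA-018 and 3.39 with empagliflozin. All 10 were called lower with TYA-018 than in non_failing and 9 of 10 with empagliflozin. The shares of all genes called lower there were 3.39 and 2.99%. All 10 were called lower with each drug than with vehicle too (medians -6.52 and -6.12), beside 1.10 and 0.719% of all genes called lower. Without V2523, however, only 3 were with TYA-018 (median -2.67) and 0 with empagliflozin (median -2.09, 7 at an unadjusted p under 0.05, edgeR). The share of all genes called without V2523 is not given here. The part of hepatocyte marker RNA in the comparisons of members was not tested. A pair of vehicle libraries also stood apart by markers of other tissues. HFpEF+Veh V2523 reached 1406 TPM over the hepatocyte markers, more than any other library. HFpEF+Veh V2532 was the highest of 38 libraries for 7 of 10 skeletal muscle markers, with fast myosin Myh4 at 7.84 TPM against at most 0.169 TPM in any other library and Tnnt3 at 16.9 against at most 1.04 TPM. Skeletal muscle also expresses most of the 9 genes, and members and partner genes were refitted without V2523 and without V2532, with values given where a named call was lost. Several tests rest on the effective length, the mean length of the transcripts of a gene weighted by their abundance, which also moves with the bias correction of a whole library. The library length shift is the mean over 11692 genes of log2 length minus the mean of that gene over the 38 libraries. The length trend is the slope of expression on gene length in a library, a sign of RNA integrity or of fragment bias.

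Per length, the order of the 9 genes by median over the 38 libraries was Fhl2 (522 TPM), Des (484), Actn2 (373), Ldb3 (195), Myom2 (85.9), Myom1 (53.2), Ttn (45.9), Rbm20 (35.5) and Fhl1 (34.9 TPM). The ranges of neighbours in this order overlapped in every case. Because of its length, Ttn took 0.213 to 0.539% of all counts of a library and 65326 to 243574 counts, whereas Fhl1, the gene with the fewest counts, had at least 1415. Counting error at these counts is small beside the spread between mice. In what follows, levels within a gene are given in CPM (counts per 1000000, scaled by TMM) and differences as log2 fold changes with the standard error (SE) of edgeR. Where mice are counted above or below the mean of another group, it is the mean of log2 values.

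**Figure D1:**
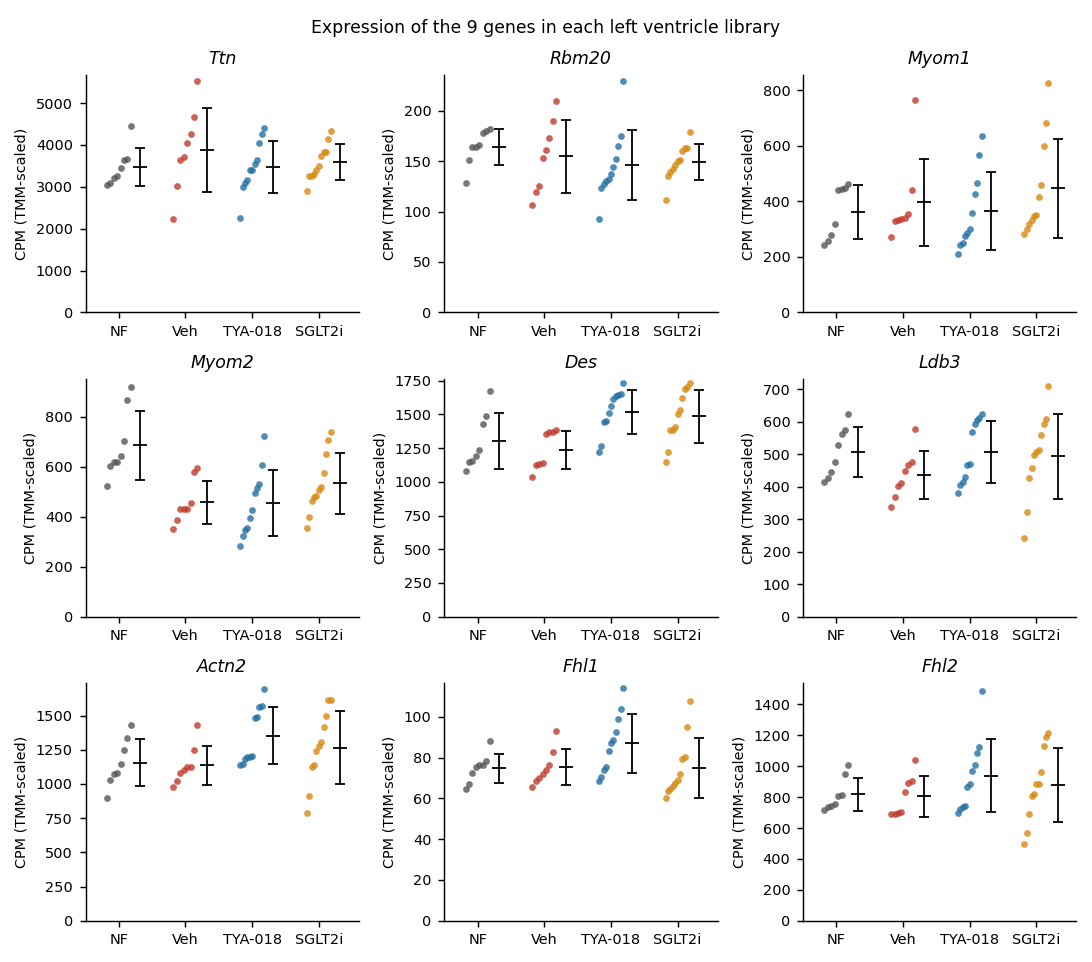
Level of each of the 9 genes (CPM, linear axis from 0) in every library of the non_failing (NF), HFpEF+Veh (Veh), HFpEF+TYA-018 (TYA-018) and HFpEF+SGLT2i (SGLT2i) groups. Points are mice in order of level, and the dash with whiskers is the mean ± SD. Myom2 has its highest values in NF, where the mean is 686 CPM, and Des in the 2 drug groups, where the means are 1521 and 1485 CPM, and groups overlap in all panels.

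The first question was what HFpEF did to these genes. Myom2, a myomesin of the M-band, was lower in HFpEF+Veh, and it was the 1 member of 9 called there, beside 3.15% of all 13765 genes tested, or 1.38% called lower. Myom2 (chr8:15057653-15133541, plus strand) ranged from 521 to 920 CPM in non_failing hearts with a median of 630, and from 351 to 596 CPM in HFpEF+Veh with a median of 430. The 8 vehicle values all lay below the non_failing mean of 686 CPM, although the ranges overlapped. The log2 fold change was -0.59 (SE 0.16, adjusted p = 0.0379, edgeR). This call was close to the threshold: it was made in 6 of 16 fits that each left out 1 library, with log2 fold changes of -0.65 to -0.51 and adjusted p from 0.0192 to 0.102 (edgeR). It was lost without V2501, V2503, V2504 or V2508 of non_failing and without V2521, V2526, V2527, V2528, V2529 or V2530 of HFpEF+Veh. Without V2523 the adjusted p was 0.0192, without V2532 it was 0.0225, and with libraries scaled by size alone it was 0.0773 (-0.51).

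Against non_failing, Myom2 was also lower in HFpEF+TYA-018 (282.7 to 723 CPM, median 426), by -0.59 on the log2 scale (SE 0.15, edgeR adjusted p = 0.0111). It was the 1 member called there, beside 7.39% of all genes, and was below the non_failing mean in 10 of 11 mice. The call held in all 19 fits that left out 1 library, with adjusted p up to 0.0303. In HFpEF+SGLT2i, Myom2 ranged from 354 to 739 CPM with a median of 505, between the other groups. Its log2 fold change against non_failing was -0.36 (SE 0.15, adjusted p = 0.163), no member was called in that comparison (2 at an unadjusted p under 0.05) beside 6.45% of all genes, and the 2 drug groups were not shown to differ (-0.23, SE 0.14, adjusted p = 0.498). Neither drug group was shown to differ from HFpEF+Veh in Myom2, with log2 fold changes of -0.01 (95% interval -0.32 to 0.30) for HFpEF+TYA-018 and 0.22 (95% interval -0.09 to 0.53) for HFpEF+SGLT2i. These comparisons share their non_failing or vehicle hearts, so they are not independent of each other. In whole-tissue RNA, fewer cells of a type and less RNA per cell cannot be told apart, and cardiomyocyte markers moved in the same direction: 4 of 10, Tnni3, Tnnt2, Myl2 and Myl3, were lower in HFpEF+Veh than in non_failing, with log2 fold changes of -0.43 to -0.34. Fibroblast markers stood on the other side there: 3 of 8, Postn (1.03), Lum (0.86) and Pdgfra (0.33), were called higher, the median of the 8 was 0.31, and they summed to 191 to 303 TPM in non_failing and 271 to 653 TPM in HFpEF+Veh. Of all genes, 1.38% were called lower in that comparison and 1.77% higher. The 10 cardiomyocyte markers together summed to 34778 to 47336 TPM in non_failing and 34801 to 41207 TPM in HFpEF+Veh. Of these 10, 1 was called lower than in non_failing with TYA-018 and 5 with empagliflozin, beside 3.39 and 2.99% of all genes. The part of cell composition in the difference of Myom2 was not tested.

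The paralogue Myom1 was spread most widely of the 9 genes, 3.95-fold between the lowest and the highest library. Myom1 (chr17:71002633-71126856, plus strand) ranged from 243 to 461 CPM in non_failing with a median of 379, from 271 to 766 in HFpEF+Veh with a median of 338, from 209 to 634 in HFpEF+TYA-018 with a median of 301 and from 284 to 826 in HFpEF+SGLT2i with a median of 349. All groups overlapped, and none of the 6 comparisons called it. The vehicle maximum came from V2532, the library with skeletal muscle markers. Without it, the log2 fold change of HFpEF+Veh against non_failing went from 0.13 to -0.07 and that of HFpEF+TYA-018 against HFpEF+Veh from -0.12 to 0.09, both with adjusted p of at least 0.867. V2532 was also the highest of the 8 vehicle libraries for Ldb3, Actn2, Fhl1 and Fhl2.

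**Figure D2:**
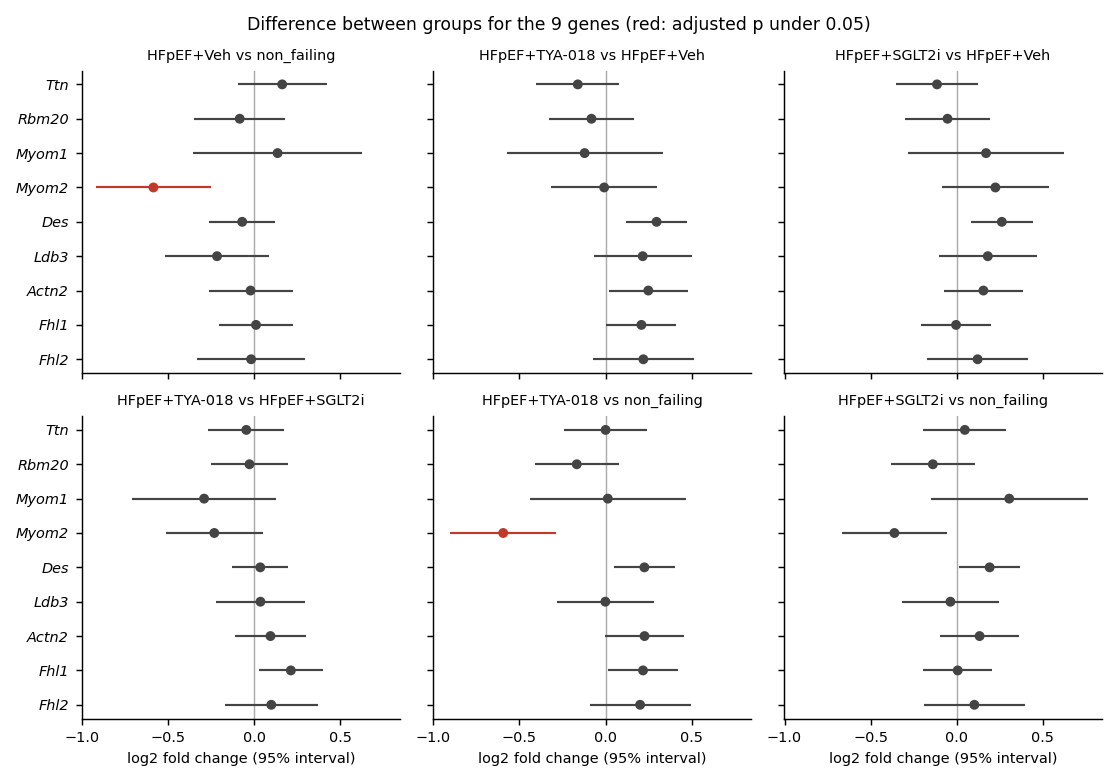
Log2 fold change of each gene in the 6 comparisons, first group against second, with its 95% interval (edgeR, 4 groups in 1 model). Red marks an adjusted p under 0.05 over all 13765 genes. The 2 red points are Myom2 in HFpEF+Veh and in HFpEF+TYA-018 against non_failing, both at -0.59.

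The next question was whether either drug changed these genes in HFpEF hearts. No member was called in HFpEF+TYA-018 against HFpEF+Veh, beside 1.93% of all genes, in HFpEF+SGLT2i against HFpEF+Veh, beside 0.850%, or between the 2 drugs, where edgeR called no gene at all and DESeq2 called 181, none of them a member. At an unadjusted p under 0.05 these 3 comparisons held 3, 1 and 1 of the 9 members, and 2404, 1383 and 1821 of all genes. The member nearest to a call was Des (chr1:75360329-75368579, plus strand), with 1039 to 1382 CPM in HFpEF+Veh and a median of 1249, 1221 to 1730 CPM in HFpEF+TYA-018 and a median of 1561, and 1148 to 1731 CPM in HFpEF+SGLT2i and a median of 1505. Des lay above the vehicle mean in 10 of 11 HFpEF+TYA-018 and 9 of 11 HFpEF+SGLT2i hearts. The log2 fold changes were 0.30 (SE 0.09, adjusted p = 0.0666) and 0.26 (SE 0.09, adjusted p = 0.199). The first was a call by DESeq2 (0.29, adjusted p = 0.0338) and by edgeR with offsets for effective length (0.34, adjusted p = 0.0351), and by edgeR without V2550 (0.32, adjusted p = 0.0453), whereas the value was 0.17 (adjusted p = 0.243) when libraries were scaled by size alone. With that scaling the median over all genes was -0.14 in this comparison, and it changed the calls from 115 higher of 266 to 25 higher of 1096. In non_failing hearts, Des ranged from 1083 to 1678 CPM with a median of 1213. Against these, HFpEF+TYA-018 stood at 0.23 (adjusted p = 0.111), which was a call without V2501 (0.28, adjusted p = 0.0358).

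Genes for other proteins of the Z-disc and the titin spring stood on the same side as Des without a call. In HFpEF+TYA-018 against HFpEF+Veh the log2 fold change of Actn2 was 0.25 (SE 0.11, adjusted p = 0.237), and all 11 values lay above the vehicle mean. Fhl1 stood at 0.21 (SE 0.10, adjusted p = 0.270), Fhl2 at 0.22 (SE 0.15, adjusted p = 0.444) and Ldb3 at 0.22 (SE 0.14, adjusted p = 0.436). When libraries were scaled by size alone these 4 values were smaller, as for Des: 0.12 for Actn2, 0.08 for Fhl1, 0.09 for Fhl2 and 0.09 for Ldb3. On log2(TPM + 1) Fhl1 and Fhl2 stood at 0.06 and 0.05 (limma). With HFpEF+SGLT2i the values were 0.16 for Actn2, 0.18 for Ldb3, 0.12 for Fhl2 and -0.0035 for Fhl1, each with an adjusted p of at least 0.681. The median over the 9 members was 0.21 with TYA-018 and 0.16 with empagliflozin, where the median over all genes was -0.01 and 0.01. Both share the vehicle hearts. With TYA-018, 5 of the 9 members had a positive value. Cardiomyocyte markers stood on the same side, with a median of 0.18 and positive values for 8 of 10 (6 at an unadjusted p under 0.05, none called), whereas the 8 fibroblast markers (median -0.30) and the 7 endothelial markers (median -0.13) all had negative values and none was called. With libraries scaled by size alone these medians were 0.06, -0.43 and -0.26, with 1 fibroblast and 2 endothelial markers called lower. That scaling also called many more of all genes lower, as given beside Des. The cardiomyocyte markers summed to 35104 to 42132 TPM with TYA-018, the fibroblast markers to 235 to 374 TPM against 271 to 653 with vehicle, and the endothelial markers to 279 to 449 against 366 to 561 TPM. The part of cell composition in these values was not tested. Between the drugs, Fhl1 differed most by unadjusted p (0.0263): it ranged from 68.8 to 114 CPM with TYA-018 (median 87.2) and from 60.4 to 108 CPM with empagliflozin (median 69.0), which is 0.21 on the log2 scale (SE 0.09) and was not a call (edgeR adjusted p = 0.312).

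The level of titin itself was not shown to differ in any comparison. Ttn ranged from 3039 to 4441 CPM in non_failing (median 3351), from 2219 to 5517 in HFpEF+Veh (median 3873), from 2264 to 4400 in HFpEF+TYA-018 (median 3403) and from 2911 to 4331 in HFpEF+SGLT2i (median 3489). The vehicle group held both the lowest and the highest value of all 38 libraries, and its lowest value was that of V2523. The log2 fold change was 0.16 (SE 0.13, adjusted p = 0.574) for HFpEF+Veh against non_failing, -0.16 (SE 0.12, adjusted p = 0.499) for HFpEF+TYA-018 against HFpEF+Veh and -0.11 (SE 0.12, adjusted p = 0.790) for HFpEF+SGLT2i against HFpEF+Veh. On log2(TPM + 1), a scale that divides by effective length, the difference of HFpEF+TYA-018 from HFpEF+Veh was -0.43 (adjusted p = 0.111, limma). With the length trend of each library as a covariate it was -0.02 (adjusted p = 0.959, edgeR), and without V2523 it was -0.24 (adjusted p = 0.208). The length trend itself was lower with TYA-018 than with empagliflozin by -0.07 (permutation test, adjusted p = 0.000900), and its difference of -0.05 from vehicle did not pass the threshold (exact permutation test, adjusted p = 0.120).

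Rbm20 (chr19:53677306-53867080, plus strand) was not shown to differ either. It ranged from 129 to 182 CPM in non_failing (median 165), from 106 to 209 in HFpEF+Veh (median 157), from 93.0 to 229 in HFpEF+TYA-018 (median 137) and from 111 to 179 in HFpEF+SGLT2i (median 149.9). The groups overlapped almost fully. All 6 log2 fold changes lay between -0.17 and -0.03, and the lowest adjusted p was 0.450. The 95% interval for HFpEF+TYA-018 against HFpEF+Veh ran from -0.33 to 0.16.

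The effective length of Ttn was then compared as a sign of isoform use, and it was longer in both drug groups. The mean length ± SD was 57028 ± 3392 bases over the 8 non_failing hearts and 55208 ± 4674 bases over the 8 given vehicle. It was 61735 ± 4170 bases over the 11 given TYA-018 and 61410 ± 4107 bases over the 11 given empagliflozin. All 38 values, from 48962 to 69279 bases, lay between the lengths of Ttn-202 and Ttn-201 in GENCODE M21, an earlier release than the M25 that the methods of the study name for these files. A longer value does not tell whether the longer N2BA forms rose against N2B, since the weight of shorter transcripts can move it too. In HFpEF+Veh the lengths ran from 48962 to 62220 bases with a median of 53612, in HFpEF+TYA-018 from 54391 to 69279 with a median of 62014 and in HFpEF+SGLT2i from 51834 to 65718 with a median of 62763. The groups overlapped, but 10 of 11 mice of each drug group lay above the vehicle mean.

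In HFpEF+TYA-018, Ttn was 11.9% longer than in HFpEF+Veh (log2 difference 0.16, two-sided exact permutation test p = 0.00570, adjusted p = 0.0268 over 6 comparisons). In HFpEF+SGLT2i it was 11.3% longer (0.15, exact permutation test p = 0.00894, adjusted p = 0.0268). Against non_failing the differences were 8.20% (adjusted p = 0.0347) and 7.63% (adjusted p = 0.0436, exact permutation tests). HFpEF+Veh and non_failing differed by -0.05 on the log2 scale (exact permutation test, adjusted p = 0.441) and the 2 drugs by 0.01 (permutation test, adjusted p = 0.859). The vehicle libraries with markers of other tissues had the longest Ttn of their group, 62220 bases in V2523 and 61302 in V2532. Without V2523 the differences from vehicle were 0.19 and 0.18, and without V2532 they were 0.18 each. The differences from vehicle held in all fits that left out 1 library, whereas that of HFpEF+TYA-018 from non_failing was lost without V2503, V2509 or V2510 (adjusted p up to 0.0936, exact permutation tests). The difference of HFpEF+SGLT2i from non_failing was lost in 12 of 19 such tests, without V2503, V2504, V2509, V2510, V2561, V2562, V2564, V2565, V2566, V2571, V2573 or V2575 (adjusted p up to 0.111).

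These differences have to be read beside the lengths of all genes. The library length shift was -0.01 ± 0.08 in HFpEF+Veh, -0.03 ± 0.08 in HFpEF+TYA-018 and 0.04 ± 0.06 in HFpEF+SGLT2i (log2, SD). Its difference from vehicle was -0.02 with TYA-018 and 0.05 with empagliflozin. After subtraction of the shift, Ttn was 13.5% longer with TYA-018 than with vehicle, in 11 of 11 mice above the vehicle mean (exact permutation test, adjusted p = 0.0277), whereas the difference of 7.68% with empagliflozin did not pass the threshold (adjusted p = 0.106). The differences from non_failing were then 11.5% (adjusted p = 0.0564) and 5.74% (adjusted p = 0.233). Among the 13765 genes, the length difference of Ttn was higher than that of 99.1% of genes in HFpEF+TYA-018 against HFpEF+Veh and of 97.4% in HFpEF+SGLT2i against HFpEF+Veh. When all genes were tested together by limma, no gene was called in either comparison and the adjusted p of Ttn was 0.770 and 0.403. With the shift subtracted these were 0.0652 and 0.580, where 0.269 and 0% of all genes were called longer. As deposited, 658 and 1432 genes had an unadjusted p under 0.05.

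**Figure D3:**
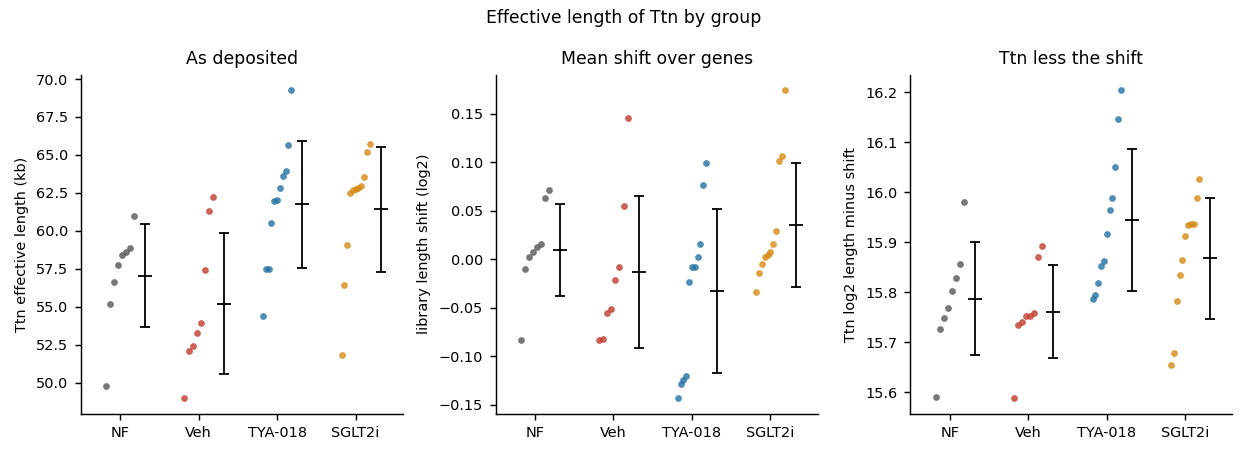
Effective length of Ttn in kb as deposited (left), mean log2 length shift of each library over 11692 genes (middle) and log2 length of Ttn minus that shift (right), by group. Points are mice, and the dash with whiskers is the mean ± SD. On the left the drug groups, with means of 61735 and 61410 bases, lie mostly above the vehicle mean of 55208 bases, and after subtraction the 11 TYA-018 hearts all lie above the vehicle mean of 15.76.

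The other 8 members had length differences from vehicle of -0.08 to 0.07 on the log2 scale, and limma called none, as it called no length difference of Ttn. After subtraction of the shift, Rbm20 was at -0.04 with TYA-018 against vehicle (limma p = 0.00210, adjusted p = 0.0652) and Fhl1 at 0.02 (p = 0.00238, adjusted p = 0.0667), beside an adjusted p of 0.0652 for Ttn. Whether Ttn differed from the other members in this was not tested. Between the drugs, Des (-0.13, adjusted p = 0.0493), Rbm20 (-0.11, adjusted p = 0.0463) and Myom1 (-0.06, adjusted p = 0.0423) were shorter with TYA-018 by limma, where 10.5% of all genes were called shorter. After subtraction of the shift, Des alone was called (-0.06, adjusted p = 0.0426), beside 1.45% of all genes. Among 14 other transcripts that RBM20 is known to splice, no length was called in either comparison with vehicle. Trdn and Sh3kbp1 were called shorter with TYA-018 than with empagliflozin, and neither was after subtraction of the shift.

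Because RBM20 sets titin length, their relation across hearts was examined, as 1 of 4 relations. The level of Rbm20 and the length of Ttn were not shown to be related, with Pearson's r = -0.21 (adjusted p = 0.280) and Spearman's rho = -0.29 (adjusted p = 0.150, permutation tests, n = 38). With Rbm20 on the TPM scale r was -0.30 (adjusted p = 0.0886) and rho -0.33 (p = 0.0446, adjusted p = 0.0595), nearer to the threshold. Within groups r was -0.35 in non_failing, -0.28 in HFpEF+Veh, 0.04 in HFpEF+TYA-018 and -0.13 in HFpEF+SGLT2i, with p of at least 0.337 for r (exact permutation tests where n = 8). Without the 2 libraries farthest from the median of Rbm20, V2555 and V2550, r was -0.31 (p = 0.0634). The library length shift and the length of Ttn were not shown to be related either (r = 0.06, rho = 0.04, adjusted p = 0.704 and 0.792).

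Rbm20 and Ttn levels rose and fell together. Over the 38 hearts r was 0.72 (adjusted p = 4e-05, permutation test, from the smallest p that 100000 resamples can give) and rho was 0.60 (adjusted p = 0.000520). Within HFpEF+Veh r was 0.86 and rho 0.81, within HFpEF+TYA-018 0.86 and 0.91, and within HFpEF+SGLT2i 0.70 and 0.68. In non_failing hearts, by contrast, r was 0.10 and rho -0.10 (exact permutation test, p = 0.792 and 0.840), although this difference between groups was not tested. Leaving out V2555 and V2550 gave r = 0.66. The length trend of a library was related to the level of Ttn by r = 0.44 (adjusted p = 0.0138) but not by rho = 0.23 (adjusted p = 0.222), and without V2555 and V2532 r was 0.23 (p = 0.169), so on this scale the relation rested on these libraries. On the TPM scale it was r = 0.63 (adjusted p = 0.000180) and rho = 0.50, and without them r = 0.44. V2555 had the lowest length trend of all, -0.19, with the lowest Rbm20 and the second lowest Ttn. The part of the length trend in the relation of Rbm20 and Ttn was not tested.

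**Figure D4:**
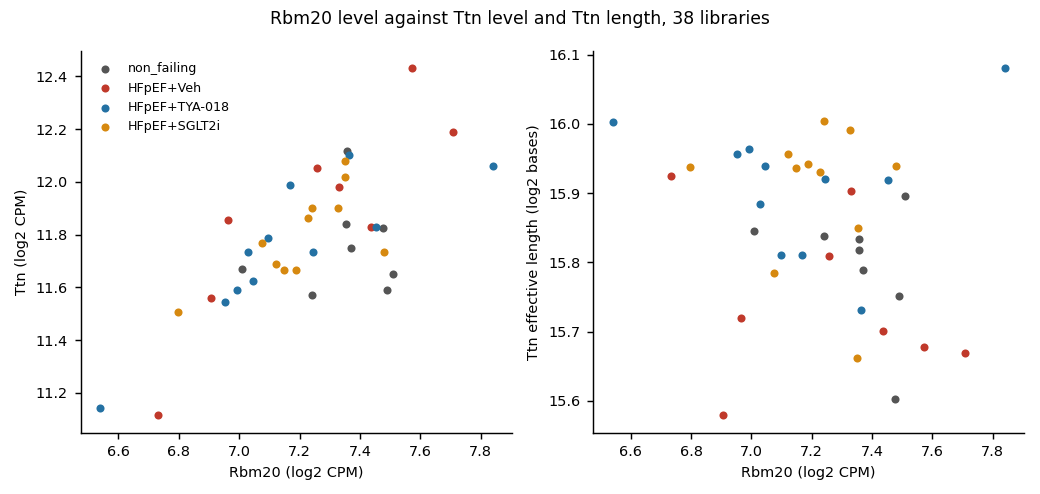
Level of Rbm20 (log2 CPM) against the level of Ttn (log2 CPM, left) and against the effective length of Ttn (log2 bases, right) in 38 libraries, coloured by group. The left panel shows levels rising together in the 3 HFpEF groups (r of 0.70 to 0.86) and no such trend in non_failing (r = 0.10), and the right panel shows a wide scatter (r = -0.21).

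Across libraries Ttn varied with Rbm20, and the scaffold genes varied with each other. These correlations are descriptions over 38 libraries that share groups, depth and library bias. Actn2 and Des had a Spearman's rho of 0.87, Actn2 and Fhl2 0.83, Actn2 and Ldb3 0.82 and Myom1 and Ldb3 0.81, whereas Ttn had rho of -0.31 to -0.03 with each of the 7 scaffold genes and Rbm20 had -0.45 with Fhl2, -0.34 with Des and -0.32 to -0.0038 with the other 5. Fhl1 was tied most closely to Fhl2 (0.71) and Myom2 to Ldb3 (0.73). The scaffold genes moved with library measures too: rho with the library length shift was 0.85 for Myom1, 0.79 for Ldb3, 0.75 for Myom2, 0.69 for Fhl2, 0.55 for Actn2, 0.48 for Fhl1 and 0.46 for Des. Their rho with the summed level of endothelial markers was -0.84 for Actn2, -0.78 for Fhl2, -0.77 for Ldb3, -0.74 for Des and -0.67 to -0.55 for Myom1, Fhl1 and Myom2. For Ttn the same 2 values were -0.26 and 0.06. No group comparison of the length shift passed adjustment (adjusted p of at least 0.271 over 6, permutation tests), and the part of these measures in the levels was not tested.

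**Figure D5:**
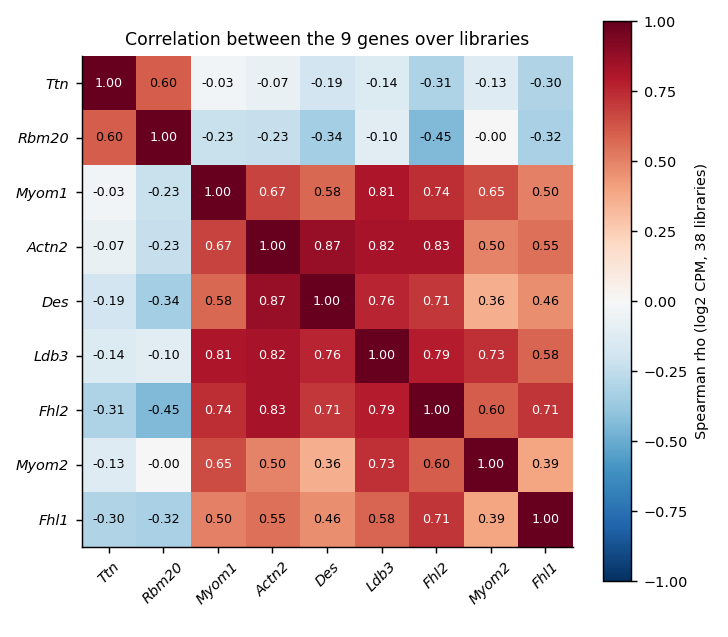
Spearman's rho between the 9 genes over 38 libraries (log2 CPM), from -1 in blue to 1 in red. Actn2, Des, Ldb3, Fhl2 and Myom1 form a block with rho of 0.58 to 0.87, and Ttn and Rbm20 have a rho of 0.60 with each other and negative values with these 5 genes, the lowest of them -0.45 between Rbm20 and Fhl2.

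Genes with the most similar pattern were sought among 7823 with an average log2 CPM of at least 3. For Ttn they included Dst (0.74), Svil (0.74), Plec (0.72) and Kmt2c (0.72). For Rbm20 they were Myh6 (0.87), the alpha heavy chain of cardiac myosin, Alpk3 (0.84), Slc35e2 (0.83), Map3k7 (0.81) and Trip11 (0.81). For Des they were C1qbp (0.94), Lrrc24 (0.92), Mdh2 (0.91), Mrpl38 (0.90) and Ndufa10 (0.90), of which C1qbp, Mdh2, Mrpl38 and Ndufa10 encode mitochondrial proteins. For Fhl1 they were Gatad1 (0.77), 2700089E24Rik (0.77), Ssbp2 (0.76) and Slmo2 (0.75), beside a gene whose symbol had been lost. The same measure for Ldb3, Actn2 and Fhl2, which was added after their values were seen, gave Pygm (0.94), Ak1 (0.93) and Mrpl44 (0.94) first, and for Myom1 and Myom2 it gave Tmem143 (0.91) and Polr2b (0.87).

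The partners of the members were described by lists. Of 9 partners of I-band titin, 2 were called higher in HFpEF+Veh than in non_failing, beside 1.77% of all genes called higher: Ankrd23, an ankyrin repeat protein bound to the spring (0.74, SE 0.15, adjusted p = 0.00315), and Capn3, a titin-bound protease (0.61, SE 0.15, adjusted p = 0.0141). Each was higher in 8 of 8 mice. Ankrd23 was called lower with TYA-018 than with vehicle (-0.51, SE 0.14, adjusted p = 0.0412), beside 1.10% of all genes called lower. Its fold change was as large without V2523 (-0.51, adjusted p = 0.0576) and nearly so without V2532 (-0.47, adjusted p = 0.0784), although neither passed the threshold. Capn3 was called higher than in non_failing with both drugs (0.62 each), beside 7.39 and 6.45% of all genes called in either direction. Of 10 skeletal muscle markers, 5 were tested. Acta1, Tnnt3 and Myl1 were called higher in HFpEF+Veh than in non_failing, and Acta1 and Myl1 with each drug. Tnnt3 was called lower with TYA-018 than with vehicle (-2.98), and Tnnt3 (-2.61) and Tnni2 (-1.53) were called lower with empagliflozin. Of all genes, 1.10 and 0.719% were called lower in these drug comparisons. Without V2532 none of the 5 was called in these drug comparisons, and Tnnt3 in HFpEF+Veh against non_failing went from 2.51 to 0.06, whereas Acta1 (1.45) and Myl1 (0.93) were still called there. Ankrd23 and Capn3 also stayed called there without V2532, at 0.70 (adjusted p = 0.00603) and 0.55 (adjusted p = 0.0274). The 10 skeletal muscle markers summed to 67.2 to 130.4 TPM in non_failing, 177 to 341 in HFpEF+Veh, 139.5 to 423 with TYA-018 and 102 to 419.6 TPM with empagliflozin. Myh4 was at 0 in 32 of 38 libraries, and Myh1 and Myh2 in 17 each. The part of the other markers in Capn3 and Ankrd23 was not tested. The median of the 9 I-band partners was 0.03 in HFpEF+Veh against non_failing, close to the 0.01 of all genes.

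Of 11 M-band and titin kinase partners, Myom3, the third myomesin, was called lower in HFpEF+Veh (-0.63, SE 0.14, adjusted p = 0.00703, lower in 8 of 8 mice), in the same direction as Myom2. Of all genes, 1.38% were called lower in HFpEF+Veh than in non_failing. No gene of that list was called in the other 5 comparisons, but without V2532 Myom3 was called higher with empagliflozin than with vehicle (0.53, adjusted p = 0.0447, from 0.49 and 0.0709 with all libraries). Of 18 Z-disc partners, none was called in HFpEF+Veh against non_failing (6 at an unadjusted p under 0.05), beside 3.15% of all genes. Library size alone called 3 of them higher there, and the fit without V2523 called 2 higher and 1 lower. The share of all genes called under these other settings is not given here. Synpo2l was lower with TYA-018 than with vehicle (-0.51, SE 0.12, adjusted p = 0.0176), beside 1.10% of all genes called lower. In HFpEF+SGLT2i against non_failing the actin crosslinker Flnc was higher (0.52) and the titin cap Tcap lower (-0.36, adjusted p = 0.0373). In that comparison 6.45% of all genes were called.

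Among 17 splicing regulators of the heart, 6 were called lower in HFpEF+TYA-018 and 6 in HFpEF+SGLT2i than in non_failing and none higher, beside 3.39 and 2.99% of all genes called lower. With TYA-018 the lowest p belonged to Srsf2 (-0.31), Qk (-0.64), Rbfox1 (-0.74) and Srpk2 (-0.23), and with empagliflozin to Srpk2 (-0.31), Srsf2 (-0.30), Mbnl1 (-0.25) and Rbfox1 (-0.65). The list median was -0.20 in both, against 0.01 over all genes. In HFpEF+Veh against non_failing none was called (6 at an unadjusted p under 0.05) and the median was -0.16. The comparisons with vehicle called none, though library size alone called 4 lower with TYA-018. That scaling also called many more of all genes lower in that comparison, as given beside Des. Without V2532 Rbfox1 was called lower in HFpEF+Veh than in non_failing (-0.83, adjusted p = 0.0178), as it was without V2523 (-0.73, adjusted p = 0.0471), and without V2523 Qk was called lower with TYA-018 than with vehicle (-0.60, adjusted p = 0.0390). Of the 14 RBM20 targets, Trdn was lower (-0.46, a call not made with library size alone) and Rtn4 higher (0.36) in HFpEF+Veh than in non_failing, beside 3.15% of all genes called there. Against non_failing, 1 of the 14 was called with TYA-018 and 2 with empagliflozin, beside 7.39 and 6.45% of all genes. Camk2d, a kinase whose isoforms depend on RBM20, was called lower in HFpEF+Veh than in non_failing without V2532 (-0.31, adjusted p = 0.0423; 0.0786 with all libraries) and was lower than in non_failing with TYA-018 (-0.33, adjusted p = 0.00924) and with empagliflozin (-0.46, adjusted p = 0.000329), and Cacna1c was higher with empagliflozin (0.62).

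Of 16 intermediate filament and costamere genes, Krt8 and Krt18 were called lower with each drug than with vehicle, beside 1.10 and 0.719% of all genes called lower, and neither call was made without V2523, the library with the most hepatocyte marker RNA. With TYA-018, Krt8 went from -5.39 (adjusted p = 0.00199) to -0.38 (adjusted p = 0.788) without it and Krt18 from -3.75 (adjusted p = 0.00345) to -0.28 (adjusted p = 0.748). With empagliflozin, Krt8 went from -6.78 (adjusted p = 0.00102) to -1.77 (adjusted p = 0.362) and Krt18 from -4.23 (adjusted p = 0.00157) to -0.77 (adjusted p = 0.532). Krt8 was also lower in HFpEF+SGLT2i than in non_failing (-3.62, adjusted p = 0.0468), a call not made with library size alone (-3.62, adjusted p = 0.0583). Also called lower there were 9 of 10 hepatocyte markers, beside 2.99% of all genes. The 10 markers summed to 24.1 to 352 TPM in non_failing and 2.08 to 9.29 TPM in HFpEF+SGLT2i, and their part in Krt8 was not tested. Of 8 relatives of the actinins, FHL and LDB proteins, 6 were tested and edgeR called none in any comparison, with at most 1 at an unadjusted p under 0.05. Library size alone called 1 lower with TYA-018 than with vehicle, where it also called many more of all genes lower.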

How the data were processed

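Left ventricle RNA of 38 mice was captured by poly(A) tail and sequenced with a stranded kit. The authors trimmed reads with fastp, used salmon, correcting for biases of sequence, GC content and position, on GENCODE M25 of GRCm38, and collapsed transcripts into genes through tximport, while the submitters' processing notes name Salmon 1.6.0 and the build hg38. The deposited expected counts are estimated reads per gene. The deposited TPM values are per 1000000 transcripts, and a deposited table gives effective lengths in bases, which are abundance-weighted means of transcripts. Since salmon splits reads between overlapping transcripts, lengths are estimates and Ttn isoforms were not measured one by one. Labels and methods differ on sex, read length, pairing and duration of treatment, none of which entered a test.

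Groups came from sample titles. The 9 members, the lists of partner and marker genes and the tests were chosen with earlier results of these data known, so no list is independent evidence. Expected counts were rounded, filtered with filterByExpr (13765 of 29564 genes kept), scaled by TMM and tested in 1 model of 4 groups in edgeR 4.0.16 (R 4.3.3) by its quasi-likelihood test, two-sided. Benjamini-Hochberg adjustment ran over all genes, with calls at an adjusted p under 0.05. Log2 CPM used a prior count of 2. Lengths were tested by permutation of mice for Ttn, exact where a group had under 10 mice and otherwise with 100000 resamples, and by limma 3.58.1 on log2 length over all genes. The length shift used genes with a count of at least 10 in every library. All 9 members are named. Of each list, called genes were named up to 4 per comparison by smallest p, and the 5 genes most alike by Spearman's rho were named for Ttn, Rbm20, Des and Fhl1. A gene that these rules would name is not reported here. Alternatives were RLE size factors, library size alone, no filter, DESeq2 1.42.0, length offsets, limma on log2(TPM + 1) and log2(TPM + 0.1) over genes counted in 90% or more of libraries, the 2 groups alone, the length trend as covariate and each library left out. The edgeR and limma scripts were tested on simulated data. Nothing states whether mice were littermates or shared a batch. The p-values take mice as independent, and a difference of batch between groups could not be told apart from the group difference. Unmapped columns numbered 0. Coordinates are 1-based, from GENCODE M21, so transcript lengths set beside deposited lengths are of another release. Protein sequences were not used here.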

Additional observations from a re-analysis of the deposited data

Results flagged for a closer look

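Among 20 sets of 8 values examined (the 9 genes and the length of Ttn in non_failing and HFpEF+Veh), chance would mark about 1 in 20, and 1 was marked. Myom1 in HFpEF+Veh V2532 stood apart from the other 7 vehicle libraries at a log2 CPM of 9.58, where the next was 8.79. V2532 is also the highest of 38 libraries for 7 of 10 skeletal muscle markers, and their part in its Myom1 level was not tested.

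Effective lengths differed between the 2 drugs for 3 members by limma, where 10.5% of all 13765 genes were called shorter with TYA-018. The log2 difference of HFpEF+TYA-018 from HFpEF+SGLT2i was -0.13 for Des, -0.061 for Myom1 and -0.11 for Rbm20, where the median over all genes was -0.07. The library length shift differed between these groups by -0.07 (permutation test, p = 0.0452, adjusted p = 0.271 over 6 comparisons), and its part was tested only by subtraction, after which Des alone was called.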

How the results depend on the processing

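Of 486 fold changes of members under other settings, 437 kept their direction and side of the threshold, 5 lost a call, 2 gained one and 42 changed sign, and none of the last was a call. No paired analysis was possible because mouse numbers differ in every group. Of 1026 values with 1 library left out, 938 kept both.

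The number of members called in HFpEF+Veh against non_failing went from 1 to 0 with library size alone, without the filter, with length offsets and by limma with either pseudocount, and in HFpEF+TYA-018 against HFpEF+Veh from 0 to 1 with length offsets and by DESeq2. Leaving out libraries gave 0 to 1 in both and 1 to 2 in HFpEF+TYA-018 against non_failing. Called genes of the partner lists, marker lists not counted, went from 4 to 12 with library size alone in HFpEF+TYA-018 against HFpEF+Veh. That scaling also called many more of all genes there, as given beside Des, so the rise is not particular to these lists. Without V2523 or V2532, the second chosen after seeing the data, the called partner genes numbered 2 and 3 there, 0 and 3 in place of 2 in HFpEF+SGLT2i against HFpEF+Veh, and 9 and 7 in place of 5 in HFpEF+Veh against non_failing. With all libraries, 1.93, 0.850 and 3.15% of all genes were called in these comparisons. The shares without V2523 or V2532 are not given here. Member lengths called between the drugs went from 3 to 1 after subtraction of the shift, an alternative chosen after seeing the data.

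The length differences of Ttn lost their call by limma over all genes (0.16, 0.15, 0.11 and 0.11) and, after subtraction of the shift, in HFpEF+SGLT2i against HFpEF+Veh (0.11), HFpEF+TYA-018 against non_failing (0.16) and HFpEF+SGLT2i against non_failing (0.081). With libraries left out they ranged from 0.14 to 0.19 (HFpEF+TYA-018) and 0.13 to 0.18 (HFpEF+SGLT2i) against HFpEF+Veh, from 0.086 to 0.13 and 0.078 to 0.13 against non_failing, from -0.077 to -0.025 in HFpEF+Veh against non_failing, and from -0.016 to 0.026 between the drugs. The cause was not tested.

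Signs changed as follows, on the log2 scale. Ttn in HFpEF+TYA-018 against non_failing was -0.0049 with RLE size factors, -0.0033 without the filter, -0.011 with the 2 groups alone and -0.0048 by DESeq2. With library size alone, Des was 0.00041, Actn2 0.048 and Fhl2 0.054 in HFpEF+Veh against non_failing, Des was -0.015 and Ldb3 -0.013 in HFpEF+TYA-018 against HFpEF+SGLT2i and Ttn was -0.059 and Myom1 -0.042 in HFpEF+TYA-018 against non_failing. By limma on TPM, with the same values at pseudocounts of 1 and 0.1 unless given, Des was 0.021, Actn2 0.079 and Fhl2 0.067 in HFpEF+Veh against non_failing, Ttn was -0.20, Myom1 -0.089 (-0.090 with 0.1) and Ldb3 0.028 in HFpEF+TYA-018 against non_failing and Ttn was -0.011 in HFpEF+SGLT2i against non_failing. With the length trend as covariate, Fhl1 was -0.0033 in HFpEF+Veh against non_failing, Rbm20 was 0.058, Myom1 0.087 and Myom2 0.0074 in HFpEF+TYA-018 against HFpEF+Veh, Ttn was 0.12, Rbm20 0.14 and Des -0.015 in HFpEF+TYA-018 against HFpEF+SGLT2i, Ldb3 was 0.038 in HFpEF+TYA-018 against non_failing and Ttn was -0.033 and Fhl1 -0.019 in HFpEF+SGLT2i against non_failing. With length offsets, Myom2 was 0.0048 in HFpEF+TYA-018 against HFpEF+Veh, Rbm20 was 0.013 in HFpEF+TYA-018 against HFpEF+SGLT2i, Ttn was -0.15, Myom1 -0.0091 and Ldb3 0.060 in HFpEF+TYA-018 against non_failing and Ttn was -0.039 and Fhl1 -0.0050 in HFpEF+SGLT2i against non_failing.

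With 1 library left out, log2 fold changes that changed sign at least once ranged as follows. For HFpEF+Veh against non_failing, Myom1 ran from -0.072 to 0.20, Actn2 from -0.076 to 0.028, Fhl1 from -0.041 to 0.037 and Fhl2 from -0.081 to 0.030. For HFpEF+TYA-018 against HFpEF+Veh, Myom1 ran from -0.23 to 0.085 and Myom2 from -0.099 to 0.059. For HFpEF+SGLT2i against HFpEF+Veh, Rbm20 ran from -0.12 to 0.016 and Fhl1 from -0.067 to 0.047. For HFpEF+TYA-018 against HFpEF+SGLT2i, Ttn ran from -0.085 to 0.0050, Rbm20 from -0.11 to 0.025 and Ldb3 from -0.036 to 0.10. For HFpEF+TYA-018 against non_failing, Ttn ran from -0.042 to 0.056, Myom1 from -0.098 to 0.071 and Ldb3 from -0.047 to 0.045. For HFpEF+SGLT2i against non_failing, Ldb3 ran from -0.10 to 0.035 and Fhl1 from -0.058 to 0.032.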
